A study of Mus musculus with 6 samples.

Results

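Carbonic anhydrases were followed in 6 Affymetrix arrays of mouse colon tumours. The members were chosen by gene symbol, as every probe set whose only annotated gene was Car1, Car2, Car3, Car4, Car7, Car8, Car9, Car12, Car13 or Car14. A probe set measures transcripts through several short probes, and some probe sets read more than 1 transcript. The rule found 22 probe sets for these 10 genes, out of 18194 genes with a probe set of their own on the array. The rule uses gene symbols alone, but the family was picked with earlier results of these data known. The 3 control samples came from tumours of wild type mice and the 3 transgenic samples from tumours of mice with a human IL8 transgene, both of the strain CBA/C57BL/6 and all recorded as male. Human IL8 (CXCL8) is a chemokine that attracts neutrophils. The sources used here do not state the promoter that drove the transgene, the ages of the mice, the way the tumours arose or the number of tumours behind an array. The design gives 3 mice per group, but no label ties an array to a mouse, so the p-values cover the spread between these arrays, which may be technical.

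Carbonic anhydrases are zinc enzymes that interconvert carbon dioxide and water with bicarbonate and a proton. In the colon they supply the bicarbonate and protons that surface cells exchange for chloride and sodium, and they help to set the pH at both faces of the epithelium. The family holds cytosolic enzymes (Car1, Car2, Car3, Car7, Car13), membrane-bound enzymes whose active site faces outward (Car4, Car9, Car12, Car14) and Car8, a relative that has lost the catalytic activity. Car1 and Car4 are known as genes of mature colonocytes, and Car9 as a target of the hypoxia-inducible factor.

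The deposited values were log2 expression values made with GCRMA, and array medians ran from 3.31 to 3.36. A level of 4 was taken as the limit above background, and a probe set was tested where it reached 4 on at least 3 arrays, which held for 19310 of 45101 probe sets. All 10 genes of a colon epithelium list were tested, and Epcam, Krt8 and Krt18 were at 13.07 or more on every array. The 3 transgenic arrays went against the recorded male sex, and the 3 control arrays did not. Xist, the RNA of the inactive X chromosome, was between 2.33 and 2.64 on the control arrays and between 12.27 and 12.89 on the transgenic arrays, and the Y-linked Eif2s3y was between 9.99 and 10.22 on the control arrays and between 2.39 and 2.71 on the transgenic arrays. Every difference between the groups is thus also a difference between arrays without and with Xist, and the transgene and this split cannot be told apart. Transgenic array 2 also stood apart, because 13 of 14 squamous epithelium genes were highest there and 8 of the 14, Trp63 and Krtdap among them, reached 4 on that array alone. The summed level of the squamous list was 14.91 on transgenic array 2, 9.03 and 9.18 on transgenic arrays 1 and 3, and between 8.66 and 9.72 on the control arrays.

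The colon tumours of both groups had Car1, Car2, Car4, Car8, Car9, Car12 and Car13 in the tested range, while Car3, Car7 and Car14 were at or near background. Car9 and Car8 had the largest differences relative to their error, at 1.21 and 1.13 on the log2 scale in the direction of the transgenic tumours. Car4 had by far the widest spread of the family, from 2.62 to 10.73, and that spread ran within both groups. Of the 22 member probe sets 9 were tested, for 7 genes, and 0 had an adjusted p under 0.05 in limma (Benjamini-Hochberg, adjusted over every tested probe set), where the share of all probe sets called was 0.0570%. An unadjusted p under 0.05 was reached by 2 of the 9, Car8 and Car9, against 5.50% of all probe sets. The group means were higher in the transgenic tumours for 8 of the 9 probe sets (6 of 7 genes), against 46.8% of all probe sets, and 4 of the 9 differed by at least 2-fold, all upward, against 4.51% of all probe sets in either direction and 1.60% upward. Of these 4, 2 were the probe sets of Car4, which share a gene and overlapped widely between the groups. Among the 8 with a higher mean, the dimmer Car13 probe set passed the filter only through the transgenic arrays, with 1 control array at 4 or more. Both Car4 probe sets reached 4 on 1 control and 2 transgenic arrays, so they too passed only with the transgenic arrays counted. The median difference over all probe sets tested was -0.02. Fewer cells that express a gene and less RNA per cell cannot be told apart in such bulk samples. Given how the family was picked, these shares describe the family and test nothing about it.

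**Figure D1:**
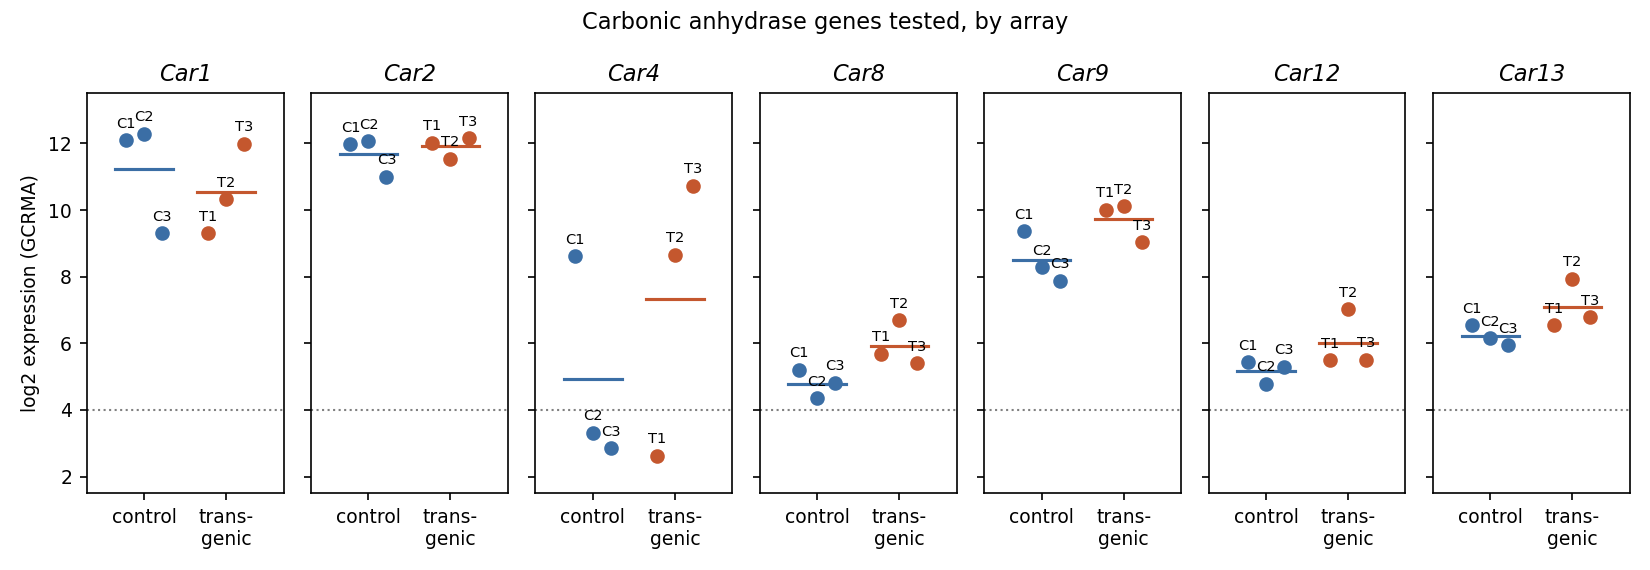
Log2 expression of the 7 carbonic anhydrase genes tested, with 1 panel a gene and the probe set of highest mean. Points are single arrays (C1 to C3 control, T1 to T3 transgenic), bars are group means and the dotted line is the background limit of 4. Car4 lay under 4 on C2, C3 and T1 and between 8.61 and 10.73 on the others, while Car2 varied by 1.16.

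Among the cytosolic enzymes, Car2, the fast and widespread isoform that serves bicarbonate and proton secretion, varied less than Car1. Car2 was at 11.97, 12.07 and 10.998 on control arrays 1 to 3 and at 12.02, 11.54 and 12.16 on transgenic arrays 1 to 3. Control array 3 was the low one, and the groups overlapped. The means were 11.68 ± 0.59 in control and 11.91 ± 0.33 in transgenic tumours (SD, n = 3 per group), a difference of 0.23 ± 0.34 (SE) with a 95% confidence interval of -0.58 to 1.04 (limma adjusted p 0.890). Without control array 3 the difference was -0.11, and with 1 array left out at a time it ran up to 0.42.

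Car1, the slower cytosolic isoform that is abundant in colonocytes and red blood cells, varied more. It was at 12.10, 12.29 and 9.31 on the control arrays and at 9.30, 10.33 and 11.99 on the transgenic arrays. Each group held at least 1 array near 12 and 1 near 9.3, so that the groups overlapped widely. The means were 11.23 ± 1.67 and 10.54 ± 1.35 (SD, n = 3 per group), a difference of -0.69 ± 1.00 (SE, 95% confidence interval -3.10 to 1.72, limma adjusted p 0.889). Car1 alone of the 7 genes tested had a lower mean in the transgenic tumours, and leaving out 1 array moved the difference from -1.65 without control array 3 to -0.07 without transgenic array 1. Control array 3 was low in Car2 too, whereas transgenic array 1 was low in Car1 and among the higher arrays in Car2. With array quality weights the Car1 difference was -0.39.

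Both Car1 and Car2 are also enzymes of red blood cells, so blood content was looked at beside them. All 7 erythroid genes with a probe set of their own, among them Alas2, Klf1 and Slc4a1, stayed under 4 on every array. Their summed level, which adds background values only, was 5.20 to 5.29 on the control and 5.47 to 5.52 on the transgenic arrays. Probe sets that several adult alpha- or beta-globin genes share were however present. The 3 of these 4 that were tested lay between 8.01 and 9.33 on the control arrays and between 9.97 and 11.25 on the transgenic arrays. All 3 were higher without overlap, against 4.61% of all probe sets, with differences of 1.69 to 2.16. In limma their unadjusted p ran from 0.000558 to 0.00258, and the adjusted p was 0.581 or more. These shared probe sets were looked up after the values of the list had been seen. The alpha-globin probe sets among the 3 are not separate results. The part of blood in the Car1 and Car2 values was not tested.

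Car13, a cytosolic enzyme of several epithelia, had a modestly higher mean in the transgenic tumours. Its brightest probe set was at 6.55, 6.15 and 5.94 on the control arrays and at 6.55, 7.93 and 6.78 on the transgenic arrays. The groups did not overlap, but the lowest transgenic array exceeded the highest control array by only 0.0022. The difference was 0.88 ± 0.39 (SE, 95% confidence interval -0.07 to 1.82, limma adjusted p 0.806). Another tested probe set gave 0.85 ± 0.37, with control arrays at 4.01, 3.62 and 3.66, near background, and transgenic arrays at 4.20, 5.45 and 4.21. In both probe sets transgenic array 2 was the high one, and without it the differences were 0.45 and 0.44.

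Car3, a cytosolic isoform of fat and skeletal muscle with low activity, was at or near background. Its 4 probe sets ran from 1.64 to 4.69, and the brightest reached 4 on control array 2 (4.69) and transgenic array 3 (4.0001) alone. Of the 12 genes of the adipocyte and muscle list with a probe set, 7 were under 4 on every array, namely Adipoq, Cidec, Retn and Lep of fat and Ckm, Acta1 and Tnnt3 of skeletal muscle. Others of the list were present, with Fabp4, a fatty acid binding protein gene of fat, between 8.44 and 10.02 and Mylpf, a myosin light chain gene of skeletal muscle, between 4.82 and 5.16. Des, the muscle filament gene desmin, was at 8.41 and 7.04 on transgenic arrays 2 and 3 and under 4 on the rest. Of the 4 genes of that list tested, Mylpf differed by -0.22, the smooth muscle genes Actg2 and Myh11 by 1.52 and 0.91 and Fabp4 by 0.45, and 0 passed in limma or had an unadjusted p under 0.05. The summed level of the list ran from 9.41 to 10.24 on the control and from 10.27 to 11.83 on the transgenic arrays, highest on transgenic array 2, and its part in the Car3 values was not tested. Car7, a cytosolic enzyme known from neurons and colon, had 3 probe sets between 1.91 and 2.99. Car14, a transmembrane enzyme, had 1 probe set between 2.73 and 3.18. These 3 genes did not pass the filter and no difference is given for them. In RefSeq's GRCm38.p6 annotation the cytosolic genes Car13, Car1, Car3 and Car2 stand next to each other, in this order, among the protein-coding genes of chromosome 3. Of this row, the brightest probe sets of Car13, Car1 and Car2 were above the limit of 4 on every array, and that of Car3 was not.

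Car4, the membrane-anchored enzyme of the colonocyte brush border, was either well above background or under the limit of 4. Its brightest probe set was at 8.61, 3.31 and 2.85 on control arrays 1 to 3 and at 2.62, 8.66 and 10.73 on transgenic arrays 1 to 3. Control array 1 and transgenic arrays 2 and 3 were thus high, and the other 3 arrays lay under 4. The other probe set showed the same arrays high, at 8.44, 7.78 and 10.22, and the same arrays under 4, at 3.19, 2.48 and 2.61. The range of 8.102 over the 6 arrays was reached or exceeded by 13 of 19310 probe sets (0.0673%), Car4 included. The group means were 4.92 ± 3.20 and 7.34 ± 4.21 (SD, n = 3 per group), and the difference of 2.42 ± 2.44 (SE, 95% confidence interval -3.48 to 8.31) was no larger than its error (limma adjusted p 0.836). Leaving out transgenic array 3 gave 0.72 and leaving out transgenic array 1 gave 4.77, and it was 4.41 with array quality weights and 2.26 with values under 4 set to 4.

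The genes whose profile over the 6 arrays lay closest to that of Car4 were Slc26a3, Hao2 and Insl5. Closeness was the root mean square distance between profiles after each gene's own mean was subtracted, among 1129 genes with a range of at least 2 on the log2 scale, and it describes these arrays without a test. Slc26a3, the chloride-bicarbonate exchanger of surface colonocytes, had a distance of 0.63 and was at 9.48, 5.32, 4.18, 3.02, 9.76 and 10.80 on the control and then the transgenic arrays. Hao2, a peroxisomal hydroxy acid oxidase, had a distance of 1.05 and Insl5, a hormone of colonic enteroendocrine cells, one of 1.20. All 3 had their highest values on control array 1 and transgenic arrays 2 and 3, the arrays high in Car4. For Car1 the closest were Hspa1b, an inducible heat shock protein (0.43), Ddit4l (0.50) and Eda2r (0.51), and for Car8 they were Ndrg2 (0.22), Nipa1 (0.22) and Prelid2 (0.23).

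**Figure D2:**
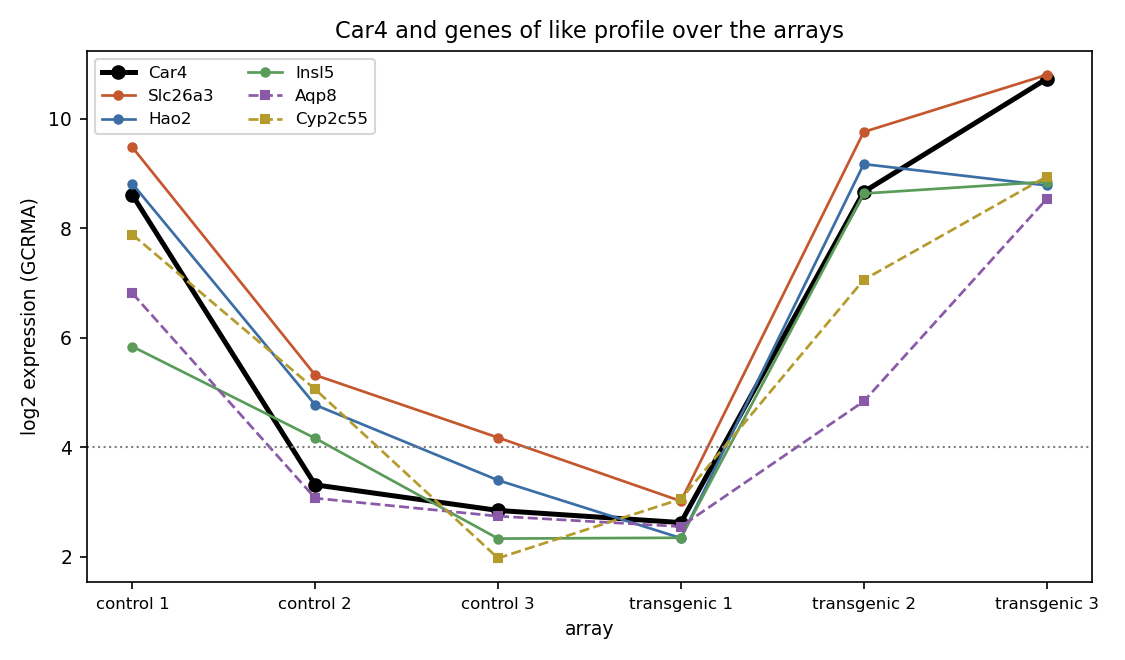
Log2 expression of Car4 (black), the 3 genes of closest profile (solid lines) and 2 further mature colonocyte genes (dashed lines) on each array. The dotted line is the background limit of 4, and lines join arrays only to show which values belong to a gene. Car4 and Slc26a3 were at 8.61 or more on control array 1 and transgenic arrays 2 and 3, and Car4 was under 4 on the rest.

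Mature colonocyte genes were looked at beside Car4. The mean level over the 17 tested genes of the mature colonocyte list was 9.44, 7.82 and 7.22 on control arrays 1 to 3 and 7.53, 9.36 and 9.59 on transgenic arrays 1 to 3. The arrays high in Car4 were those on which this list mean was above 9, but not every gene of the list split in this way. Clca4a was higher on control array 2 (10.80) than on transgenic array 2 (9.94), as was Saa1 (12.61 and 11.57). Krt20 was between 12.17 and 12.20 on all 3 transgenic arrays. The summed level of the list ran from 14.43 to 15.47 on the control and from 14.58 to 15.40 on the transgenic arrays, with 1 of 18 genes, Slc51a, under 4 throughout, and its part in the Car4 values was not tested. Aqp8, a water channel of surface colonocytes, was at 6.81, 3.07 and 2.74 and at 2.55, 4.84 and 8.53, and Cyp2c55, a cytochrome of the colon, at 7.88, 5.06 and 1.97 and at 3.06, 7.06 and 8.94. The mean of the 10 colon epithelium genes ran from 11.85 to 12.35, with Epcam between 13.82 and 13.95, Cdx1 between 8.101 and 10.27 and Cdx2 between 6.56 and 7.92. Between the groups, 15 of the 17 colonocyte genes had a higher mean in the transgenic tumours (46.8% of all probe sets), with a median difference of 0.49 (-0.02 over all probe sets tested), and 0 passed (smallest limma adjusted p 0.806). An unadjusted p under 0.05 was reached by 1 of the 17, near the 5.50% of all probe sets, and this was Sult1a1, a sulfotransferase, with a difference of 2.34 ± 0.62 (SE). Emp1 differed by 1.14, the short-chain fatty acid transporter gene Slc5a8 by 2.03 and the acute phase gene Saa1 by -0.99. The list median was 0.11 without transgenic array 3 and 0.99 without control array 1. Among the 15, Aqp8, Slc51b and Tmigd1 reached 4 on 1 control and 2 transgenic arrays. They passed the filter only with the group where they were higher. In the colon epithelium list, 9 of 10 genes had a higher mean, with a median of 0.15, and 0 passed in limma or had an unadjusted p under 0.05. Cdx1, Cdh1, Krt19 and Lgals4 differed by 0.92, 0.24, 0.21 and 0.23.

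The promoter window of Car4, shown because Car4 had the widest spread of the family, was searched for short motifs. The window runs from 250 bases before to 50 bases after the start of the transcript, from RefSeq (GRCm38.p6, chr11:84957504-84957803, plus strand), and capitals mark matches to the motifs below.

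Car4: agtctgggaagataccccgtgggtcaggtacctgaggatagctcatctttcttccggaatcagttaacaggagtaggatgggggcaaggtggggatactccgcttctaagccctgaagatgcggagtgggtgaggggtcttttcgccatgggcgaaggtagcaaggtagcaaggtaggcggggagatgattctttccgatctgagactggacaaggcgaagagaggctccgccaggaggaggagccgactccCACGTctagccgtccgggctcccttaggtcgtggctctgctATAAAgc

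Car9, an outward-facing enzyme of hypoxic tumour cells, had the largest difference of the family after Car4. It was at 9.36, 8.28 and 7.88 on control arrays 1 to 3 and at 10.01, 10.12 and 9.03 on transgenic arrays 1 to 3. The transgenic arrays were mostly the high ones, but control array 1 lay above transgenic array 3, so that the groups overlapped. The means were 8.51 ± 0.77 in control and 9.72 ± 0.60 in transgenic tumours (SD, n = 3 per group), a 2.32-fold difference of 1.21 ± 0.47 on the log2 scale (SE, 95% confidence interval 0.09 to 2.34). The unadjusted p was 0.0385 and the limma adjusted p 0.806. With 1 array left out the difference ran from 0.90 to 1.64, and without transgenic array 2, the array rich in squamous genes, it was 1.02. The promoter window of Car9 is shown because Car9 is a known target of the hypoxia-inducible factor (RefSeq, GRCm38.p6, chr4:43506776-43507075, plus strand).

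Car9: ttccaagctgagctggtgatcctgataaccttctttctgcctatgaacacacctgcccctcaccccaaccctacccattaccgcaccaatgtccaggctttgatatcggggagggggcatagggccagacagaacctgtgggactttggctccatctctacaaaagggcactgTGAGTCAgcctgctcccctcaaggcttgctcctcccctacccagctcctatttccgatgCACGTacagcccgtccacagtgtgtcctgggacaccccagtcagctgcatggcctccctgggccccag

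Capitals mark matches, on either strand, to the hypoxia response core (ACGTG or GCGTG), the core bound by Cdx factors (TTTAT) and the AP-1 site (TGACTCA). Positions count from 0 at the first base of the transcript. Car9 held 1 hypoxia core, at -18, and 1 AP-1 site, at -77. Car4 held 1 hypoxia core, at 2, and 1 Cdx core, at 43, which lies within the letters TATAAA at 42. Of 32851 windows of 300 bases, 43.8% held a hypoxia core, 40% a Cdx core and 5.2% an AP-1 site. Windows were listed for 5 of the 10 members, 7 windows in all, and 5 of the 7 held a hypoxia core, 1 a Cdx core and 1 an AP-1 site. The window of Car12 held none of the motifs. A match describes letters in a window and does not show binding.

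Other hypoxia-inducible genes were set beside Car9, and their summed level ran from 14.58 to 14.84 on the control and from 14.77 to 15.15 on the transgenic arrays. Of 15 tested genes of a hypoxia-inducible list, 11 had a higher mean in the transgenic tumours (46.8% of all probe sets), with a median difference of 0.30 (-0.02 over all probe sets tested), and 0 passed (smallest limma adjusted p 0.806). Pdk1, a kinase that inhibits pyruvate dehydrogenase, was at 8.65, 8.26 and 8.36 on the control and at 9.64, 9.45 and 8.54 on the transgenic arrays, a difference of 0.79 ± 0.31 (SE) with an unadjusted p of 0.0444. Ankrd37 differed by 0.59, the angiogenic factor gene Vegfa by 0.60 and the glucose transporter gene Slc2a1 by 0.52. The hexokinase gene Hk2 differed by -0.30. The groups did not overlap for 3 of the 15, all higher in the transgenic tumours, against 4.61% of all probe sets, and these were Ankrd37, Vegfa and Pgk1, by margins of only 0.0077, 0.0052 and 0.0332. Without transgenic array 1, on which the list was highest (mean level 9.77), its median was 0.16.

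**Figure D3:**
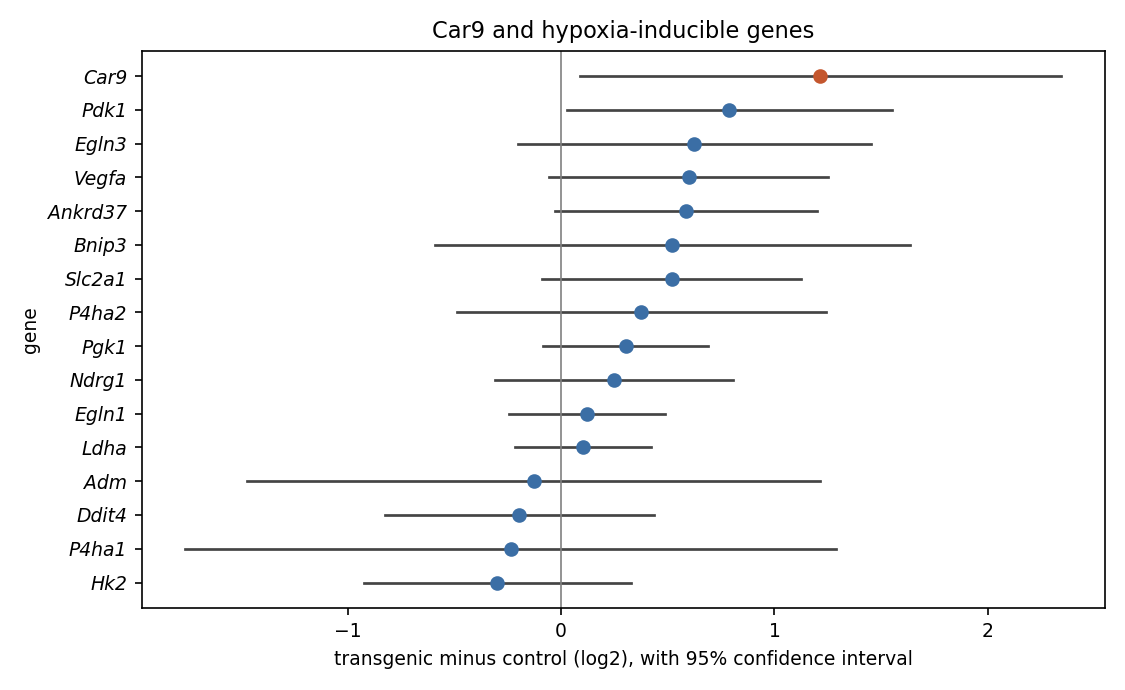
Difference between transgenic and control tumours (log2) for Car9, in orange, and the 15 hypoxia-inducible genes tested, in blue, with 95% confidence intervals from limma. Car9 differed by 1.21 and Pdk1 by 0.79, and the intervals of the other 14 genes include 0.

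Car12, a transmembrane enzyme that acidifies the space outside epithelial cells, differed less. Its brightest probe set was at 5.43, 4.78 and 5.30 on the control arrays and at 5.48, 7.02 and 5.51 on the transgenic arrays. The groups did not overlap, by a margin of 0.056, and transgenic array 2 lay apart from all others. The means were 5.17 ± 0.34 and 6.00 ± 0.88 (SD, n = 3 per group), a difference of 0.83 ± 0.45 (SE, 95% confidence interval -0.26 to 1.93, limma adjusted p 0.806). Without transgenic array 2 it was 0.32. The other 2 probe sets of Car12 stayed between 2.13 and 3.19.

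Car8, the relative without catalytic activity, had the smallest p of the family. It is known as a partner of the inositol trisphosphate receptor. It was at 5.20, 4.35 and 4.81 on the control arrays and at 5.68, 6.69 and 5.40 on the transgenic arrays. The groups did not overlap, with 0.197 between the nearest arrays, and transgenic array 2 was again the highest. The means were 4.79 ± 0.43 and 5.92 ± 0.68 (SD, n = 3 per group), a 2.20-fold difference of 1.13 ± 0.39 (SE, 95% confidence interval 0.19 to 2.08, unadjusted p 0.0256, limma adjusted p 0.806). Without transgenic array 2 it was 0.75. The other 2 Car8 probe sets stayed between 2.07 and 2.99 and were not tested.

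The groups did not overlap for 4 of the 9 member probe sets, those of Car8, Car12 and Car13 (2), all higher in the transgenic tumours, against 4.61% of all probe sets that were higher without overlap. The 2 Car13 probe sets read the same gene, and the margin of the brighter was 0.0022. The dimmer reached 4 on 1 control and 3 transgenic arrays, so it passed the filter only through the group where it was high. Lower without overlap were 0 of the 9, against 6.31% of all probe sets. In Car8, Car12 and Car13 transgenic array 2 was the highest array. It was the highest for 4 of the 7 genes tested, Car9 included, and for 22.7% of all probe sets. The same array held the high squamous genes, among them Krt10 at 11.50 against 6.85 to 7.11 elsewhere. Among the squamous genes tested, 5 of 5 had a higher mean in the transgenic tumours, against 46.8% of all probe sets. The list median was 1.71, and 0.20 without transgenic array 2. In limma 0 passed or had an unadjusted p under 0.05. Sbsn, Krt10, Krt6a and Krt4 differed by 1.71, 1.67, 2.73 and 1.85. Without transgenic array 2, Krt4 and Krt14 had a lower mean (-0.42 and -0.78), and Sbsn, Krt10 and Krt6a a higher one. With that array left out, the differences of Car8, Car12 and Car13 were smaller by more than 1.5 times but kept their direction. The part of the squamous tissue in these values was not tested.

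**Figure D4:**
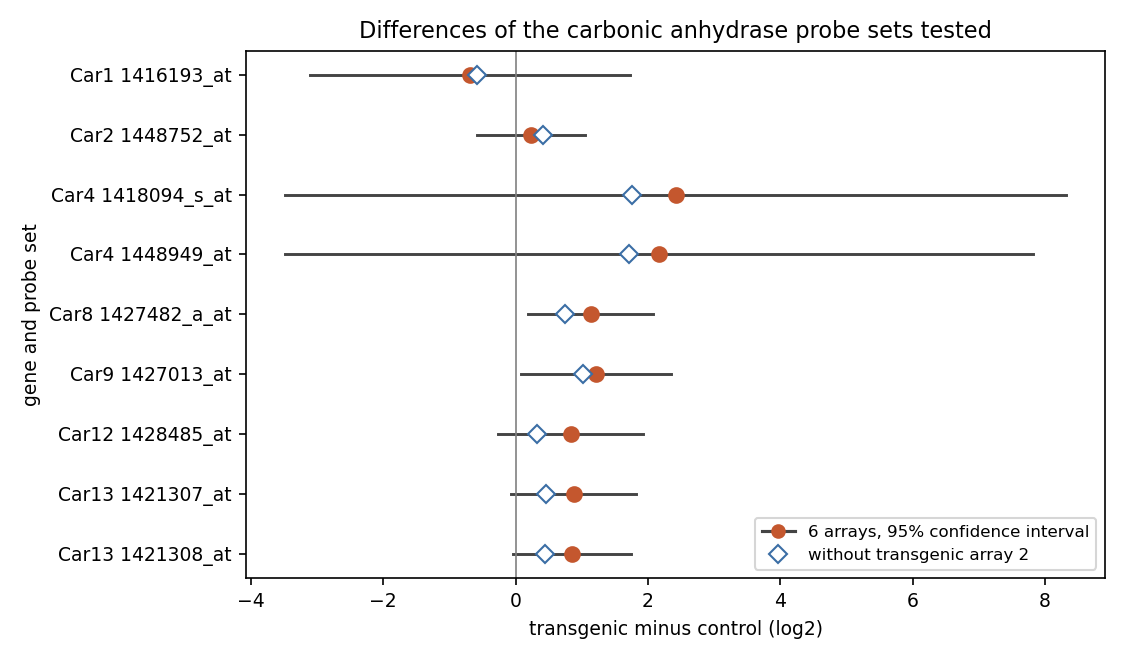
Difference between transgenic and control tumours (log2) for the 9 carbonic anhydrase probe sets tested, with 95% confidence intervals from limma (circles and lines) and the value without transgenic array 2 (diamonds). The intervals of Car8 (0.19 to 2.08) and Car9 (0.09 to 2.34) lie above 0 before adjustment, and that of Car4 spans -3.48 to 8.31.

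The remaining carbonic anhydrases of the mouse family, Car5a, Car5b, Car6, Car10, Car11 and Car15, were at background. Their 8 probe sets ran from 1.82 to 3.75 over all arrays, and 0 of the 6 genes was tested. Mitochondrial (Car5a, Car5b) and secreted (Car6) forms were thus not detectable in these tumours with these probe sets.

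Bicarbonate made by carbonic anhydrases leaves or enters the cell through exchangers and channels, and protons through exchangers and pumps. Of 28 listed genes for bicarbonate, proton, lactate and water transport, 25 had a probe set and 14 were tested. Of the 14, 11 had a higher and 3 a lower mean in the transgenic tumours, against 46.8% of all probe sets higher, with a median difference of 0.54 (-0.02 over all probe sets tested). In limma 0 passed (smallest adjusted p 0.806), and 1 of the 14 had an unadjusted p under 0.05, against 5.50% of all probe sets. This 1 was Slc4a4, the sodium bicarbonate cotransporter that brings bicarbonate into epithelial cells. Slc4a4 was at 7.18, 6.57 and 6.98 on the control arrays and at 9.40, 8.04 and 8.32 on the transgenic arrays, so that all transgenic arrays were the higher ones. The difference was 1.68 ± 0.38 (SE, 95% confidence interval 0.75 to 2.60, unadjusted p 0.00412). The 4 tested probe sets of Slc4a4 differed by 1.02 to 1.73, each without overlap between the groups, against 4.61% of all probe sets, and they read the same gene. With 1 array left out, the brightest ran from 1.27 to 1.95. Among the 11 genes with a higher mean, Best2 and Aqp8 reached 4 on 1 control and 2 transgenic arrays. They passed the filter only with the transgenic arrays counted. Slc26a3 and Aqp8 also stand in the mature colonocyte list, so the counts of these lists are not separate.

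Best2, an anion channel of goblet cells, was at 4.35, 3.43 and 3.78 on the control arrays and at 3.63, 8.50 and 7.76 on the transgenic arrays. Transgenic array 1 lay within the control range, and the difference of 2.78 ± 1.23 (SE) was 4.27 without that array. The sodium-proton exchanger gene Slc9a2 differed by 0.88 ± 0.40 and the lactate transporter gene Slc16a1 by 0.70 ± 0.34. Slc9a3 is the main sodium-proton exchanger of the colon surface. Its brightest probe set was between 11.36 and 12.04 on 5 arrays and at 4.10 on transgenic array 2. The difference of -2.80 ± 1.97 in this probe set was -0.33 without that array. The other Slc9a3 probe set stayed between 2.65 and 3.65 on all arrays and was not tested, so these values rest on 1 probe set. Slc26a3, whose profile lay closest to that of Car4, differed by 1.53 ± 2.33 in its brightest probe set, and by 0.06 there without transgenic array 3. Its other tested probe sets differed by 2.03 ± 1.81 and 2.16 ± 1.57.

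**Figure D5:**
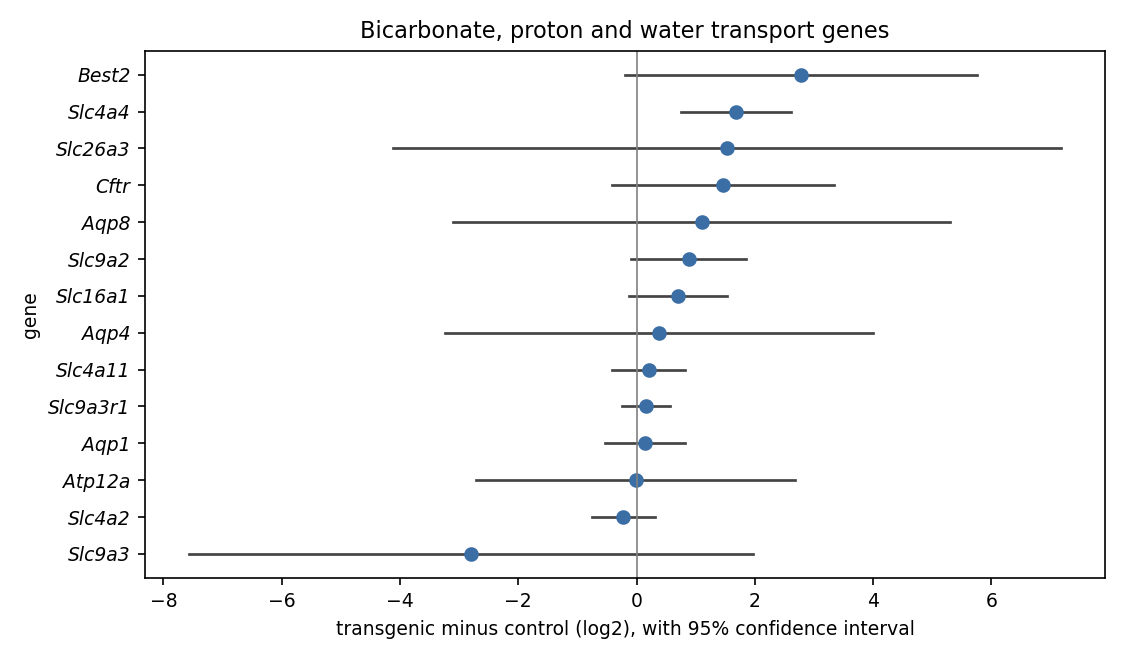
Difference between transgenic and control tumours (log2) for the 14 transport genes tested, with 95% confidence intervals from limma. The interval of Slc4a4 (0.75 to 2.60) lies above 0 before adjustment, and those of the other 13 genes include 0.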

How the data were processed

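Total RNA of 6 colon tumour samples, 3 per group, was hybridised to Affymetrix arrays. The deposited values are log2 expression values that the authors made with GCRMA, per the submitters' processing notes (version and genome build: not given in the sources used here). Groups came from the sample titles. No further normalization was applied. Gene names came from the platform annotation, which gave 1 symbol to 34958 probe sets, several to 932 and none to 9211. Probe sets at 4 or more on at least 3 arrays were tested, without the 64 AFFX controls, with limma 3.58.1 in R 4.3.3 (lmFit, eBayes, two-sided, Benjamini-Hochberg over 19310 probe sets). GCRMA values near background are compressed, so differences of dim genes are uncertain. The number of arrays limits the precision. A gene was represented by its probe set of highest mean. Of each list, the 4 genes of smallest p were named. Other list genes were named after their values were seen. The fit was tested on simulated data. The members and lists were chosen with earlier results of these data known. The alternatives were other filters, normalizations, variance priors and weights, a floor at 4, a threshold of 0.1, the replicate block and leaving out each array.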

Additional observations from a re-analysis of the deposited data

How the results depend on the processing

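In limma 0 of the carbonic anhydrase probe sets and 0 of the transport genes were called under every alternative run, and 8 to 12 probe sets were called over all genes, against 11 as reported. Leaving out 1 array at a time gave 8 to 11. With no filter it was 9, and at the stricter filter of 6, which dropped Car8, Car12 and the dimmer probe set of Car13, it was 9. The 8 other tested member differences kept their sign in all alternatives. The Car2 difference ran from -0.11 (without control array 3, adjusted p 0.972) to 0.42 with 1 array left out, and the cause of the change of sign was not tested. The lowest adjusted p of any member was 0.348, for Car8 without transgenic array 3. Array quality weights gave 4.41 for Car4 and -0.39 for Car1. The mean of all tested probe sets gave 2.29 for Car4 and 0.86 for Car13. The deviations of same-numbered arrays from their group means correlated at -0.267, -0.277 and -0.051 across probe sets. Those of differently numbered arrays correlated at -0.064 to 0.299. Deviations from a mean of 3 arrays depend on each other, so these values cannot settle whether the replicate numbers pair the arrays. The replicate block called 8 probe sets and 0 of the members. The erythroid list had no tested gene and so no median. Signal near background limits Car3, Car7 and Car14.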
